A study of Rattus norvegicus with 6 samples.

Results

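The 9 genes described here are the CC chemokines Ccl2, Ccl3, Ccl4, Ccl5, Ccl6, Ccl7 and Ccl20 and the chemokine receptors Ccr1 and Ccr2 of the rat, read from brain tissue on single-colour expression arrays. They were taken by symbol, after the accession of each array probe had been matched to the RefSeq gene table, and they are 9 of the 15443 gene symbols that had a probe. Ccl20 had 2 probes and each of the others had 1, which makes 10 probes for 7 ligands and 2 receptors. The study set 3 arrays from brain of rats given a sham operation (sham 1 to 3) against 3 from rats with intracerebral hemorrhage (ICH 1 to 3). The labels of the ICH arrays name peripheral brain tissue, and all 6 arrays carry the age or time label of day 1. Intracerebral hemorrhage is bleeding into the substance of the brain, and the series is about the injury of the tissue around the hematoma. The labels call the arrays biological replicates. Strain, sex, the way the hemorrhage was made and the side and extent of the dissection are not given in the sources used here, and the design text speaks of the second group as transfected, a word that no label of a sample repeats.

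Chemokines are small secreted proteins that direct the migration of leukocytes, and the CC class is named for a pair of adjacent cysteines near the amino terminus. They act on receptors with a membrane-spanning serpentine fold that signal through inhibitory G proteins, and most receptors bind several ligands while most ligands bind several receptors. Ccl2 and Ccl7 are ligands of Ccr2, the receptor by which monocytes leave the bone marrow and enter inflamed tissue. Ccl3 and Ccl5 act through Ccr1. Ccl6 is a Ccr1 ligand known from the mouse, and Ccl20 is the ligand of Ccr6. In injured brain, microglia, astrocytes, endothelium and arriving leukocytes are known sources of these ligands.

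RefSeq promoter windows of 300 bases, from 250 bases before to 50 bases after the start of transcription in the GRCr8 assembly, were at hand for 5 of the 9 genes, namely Ccl6, Ccl7, Ccl20, Ccr1 and Ccr2. Those of Ccl7 and Ccl20 are printed because, of the 5 genes, their signals on ICH 1 and ICH 2 lay farthest above the sham arrays. They are Ccl7 at chr10:67513845-67514144 on the plus strand and Ccl20 at chr9:91836909-91837208 on the plus strand, each written 5′ to 3′ along the gene. Capitals mark matches to the NF-kB consensus and to the AP-1 motif TGANTCA.
Ccl7: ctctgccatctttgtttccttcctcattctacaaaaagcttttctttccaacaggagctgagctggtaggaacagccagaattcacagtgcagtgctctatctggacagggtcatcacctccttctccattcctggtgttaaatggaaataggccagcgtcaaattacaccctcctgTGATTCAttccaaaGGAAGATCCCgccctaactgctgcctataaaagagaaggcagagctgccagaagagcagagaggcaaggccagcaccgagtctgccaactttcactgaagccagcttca
Ccl20: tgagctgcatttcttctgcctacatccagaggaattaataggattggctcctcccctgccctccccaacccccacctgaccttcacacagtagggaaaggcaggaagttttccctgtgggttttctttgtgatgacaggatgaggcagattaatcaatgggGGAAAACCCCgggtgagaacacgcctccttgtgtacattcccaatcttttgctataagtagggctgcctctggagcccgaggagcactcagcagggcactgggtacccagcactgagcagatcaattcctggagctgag
Both strands were searched, and the marked matches do not overlap. The consensus matched in Ccl7 and Ccl20, 2 of the 5 windows, and in 7.6% of 27457 RefSeq promoter windows of the same length. The AP-1 motif matched in Ccl7 alone of the 5 and in 7.33% of all windows. The consensus match of Ccl7 began at position −59 and its AP-1 match at −73 relative to the start, and the consensus match of Ccl20 lay at −89. The TATA motif TATAAA matched in Ccl6 and Ccl7 and in 14.3% of all windows, and the C/EBP motif TTNCNNAA in Ccl6, Ccr1 and Ccr2 and in 40.8%. A match describes letters in the window and was not tested as a binding site.

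The values are log2 signals as the authors deposited them, set relative to the 75th percentile of each array, so a value of 0 is a bright probe and −6 a dim one. Levels can be compared between arrays for the same probe and not between probes. Between 81.8% and 85.4% of the spots were well above background on each array and none was saturated. All 6 arrays were on 1 slide with 2 rows, of which row 1 held sham 1 to 3 and ICH 1, and row 2 held ICH 2 and ICH 3. Markers of neurons, astrocytes and oligodendrocytes with a probe were well above background on all 6 arrays. The number of arrays, 3 a group, limits the precision of every comparison.

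Across the 22183 probes or genes tested with limma, 0 (0%) differed between ICH and sham at an adjusted p under 0.05, and 3267 (14.7%) did at an unadjusted p under 0.05. Of these, 1273 (5.74% of those tested) were higher and 1994 (8.99%) were lower in ICH, which puts 39.0% of them on the higher side. That share depended on the centring: it was 27.1% with the arrays centred on their medians and 96.5% with centring on 7 spike-in probes. Of the 9 genes, 8 passed the filter on dim probes and were tested, and none of the 8 passed at either threshold. All 8 were higher in ICH by the group means, as 44.5% of all were. Their adjusted p-values ran from 0.419 to 0.925.

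ICH 3 stood apart from the other ICH arrays for these genes. In 7 of the 8 tested genes, all but Ccl5, the signals on ICH 1 and ICH 2 exceeded those of each sham array while that on ICH 3 did not, an arrangement that 8.34% of all tested probes or genes showed. In 4 of the 8, Ccl2, Ccl3, Ccl7 and Ccr1, ICH 3 was below every sham array, as it was in 38.2% of all. All 3 ICH arrays lay above all sham arrays in none of the 8 genes and in 10.3% of all. These arrangements were chosen after the values had been seen and are given as descriptions. Each comparison of these genes is given with and without ICH 3. For some other genes ICH 3 went with its label: the protease gene Mmp9 was well above background on all 3 ICH arrays and on no sham array, and Slc17a7, a glutamate transporter gene of neurons, was above all sham arrays on each ICH array. Whether ICH 3 was taken from tissue like that of the other ICH arrays, or carries the right label, was not tested, and every mean over the ICH arrays holds it.

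**Figure D1:**
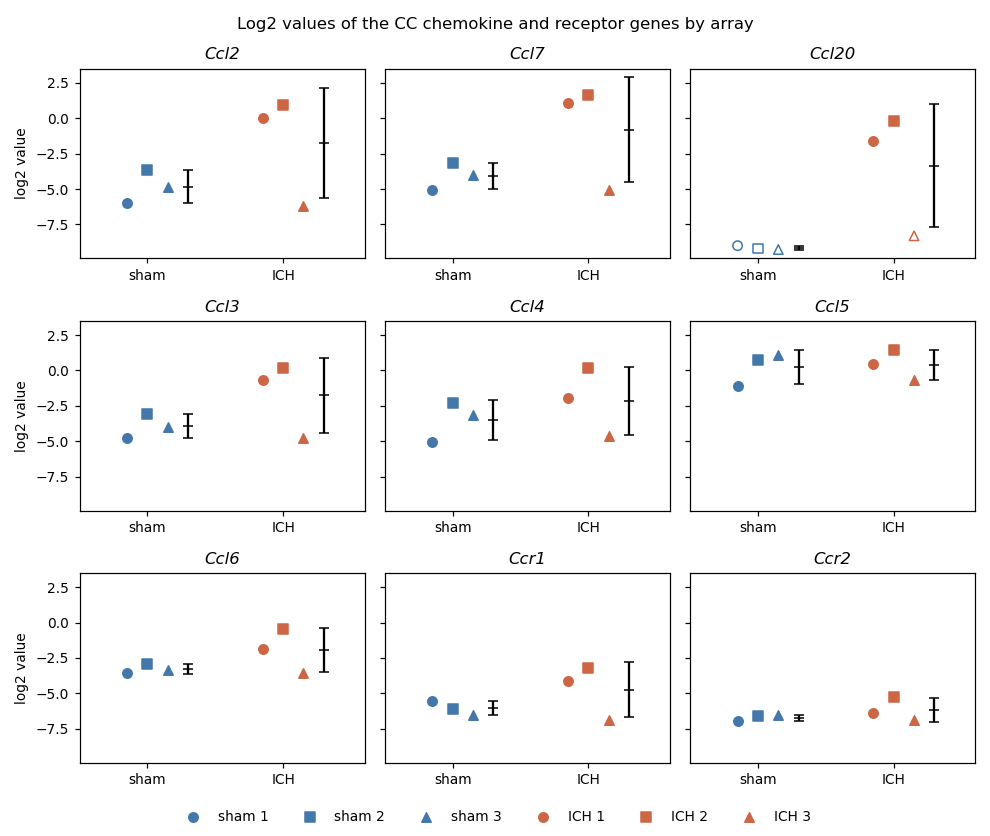
Log2 signal relative to the array's 75th percentile (vertical axis) of each of the 9 genes on the 3 sham and the 3 ICH arrays, with 1 point an array, open where the probe was not well above background, and a black bar with the mean ± SD of the group. For Ccl2, Ccl3, Ccl4, Ccl6, Ccl7, Ccl20, Ccr1 and Ccr2 the points of ICH 1 and ICH 2 lie above the sham points, and that of ICH 3 lies within or below them, or at background for Ccl20.

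The ligands of Ccr2 had the widest separation among the tested genes. Ccl2, which draws monocytes into tissue, stood at −5.98, −3.63 and −4.86 on sham 1, 2 and 3, and at 0.04, 0.93 and −6.17 on ICH 1, 2 and 3. The signal on ICH 1 and ICH 2 was 12.7-fold and 23.5-fold above the highest sham array, and ICH 3 was the lowest of all 6 arrays, so the groups overlapped. The group means were −4.82 ± 1.18 and −1.74 ± 3.87 (SD, n = 3 each). The limma difference was 3.09 ± 1.89 (log2, SE), or 8.49-fold, with a 95% interval from −1.51 to 7.68 and an adjusted p of 0.455. With ICH 3 left out it was 5.30 ± 0.73, with a limma adjusted p of 0.0867, and without ICH 2 it was 1.76 (limma adjusted p of 0.624).

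Ccl7, which shares the receptor Ccr2 with Ccl2 and lies next to it in the genome, followed it array by array. Its values were −5.03, −3.19 and −3.97 on sham 1, 2 and 3, and 1.05, 1.62 and −5.06 on ICH 1, 2 and 3. ICH 1 and ICH 2 were 18.9-fold and 28-fold above the highest sham array, and ICH 3 was again the lowest of the 6. The means were −4.06 ± 0.93 and −0.80 ± 3.70 (SD, n = 3 each). The difference was 3.27 ± 1.78 (log2, SE), or 9.63-fold, with a 95% interval from −1.07 to 7.61 and a limma adjusted p of 0.419. Without ICH 3 it was 5.40 ± 0.57, and the limma adjusted p was 0.0711, the lowest among the 8 genes in that comparison, whereas without ICH 2 it was 2.06 (limma adjusted p of 0.548).

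The other tested ligands showed smaller separations. Ccl3, a macrophage product that acts on Ccr1, stood at −4.74, −3.08 and −4.00 on sham 1, 2 and 3, and at −0.67, 0.21 and −4.77 on ICH 1, 2 and 3. On ICH 1 and ICH 2 it was 5.31-fold and 9.76-fold above the highest sham array, and ICH 3 was slightly below the lowest. The difference was 2.20 ± 1.30 (log2, SE), or 4.58-fold, with a 95% interval from −0.98 to 5.37 and a limma adjusted p of 0.445. Without ICH 3 it was 3.71 ± 0.56, with a limma adjusted p of 0.0936, and without ICH 2 it was 1.22 (limma adjusted p of 0.608).

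Ccl4, the neighbour of Ccl3 in the genome and likewise a product of macrophages, varied more among the sham arrays. It stood at −5.06, −2.32 and −3.14 on sham 1, 2 and 3, and at −1.93, 0.15 and −4.63 on ICH 1, 2 and 3. ICH 2 was 5.57-fold above the highest sham array, whereas ICH 1 exceeded it by no more than 1.31-fold and ICH 3 lay between sham 1 and sham 3. The difference was 1.37 ± 1.30 (log2, SE), or 2.59-fold, with a 95% interval from −1.80 to 4.54 and a limma adjusted p of 0.608. With ICH 3 left out it was 2.62 ± 1.01, with a limma adjusted p of 0.234. It was 0.23 without ICH 2 (limma adjusted p of 0.923), 0.60 without sham 1 and 0.26 with array quality weights.

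Ccl6, a Ccr1 ligand in the mouse, had the steadiest sham values among the tested ligands. They were −3.58, −2.91 and −3.36 on sham 1, 2 and 3, against −1.89, −0.46 and −3.56 on ICH 1, 2 and 3. Ccl6 on ICH 1 and ICH 2 was 2.02-fold and 5.46-fold above the highest sham array, and ICH 3 was level with the lowest. The difference was 1.31 ± 0.75 (log2, SE), or 2.48-fold, with a 95% interval from −0.52 to 3.14 and a limma adjusted p of 0.434. Without ICH 3 it was 2.11 ± 0.47, with a limma adjusted p of 0.132, and without ICH 2 it was 0.56 (limma adjusted p of 0.573).

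Ccl5, a ligand of Ccr1 that T cells are known to make, was the ligand whose sham arrays reached above ICH 1. It stood at −1.12, 0.75 and 1.11 on sham 1, 2 and 3, and at 0.49, 1.42 and −0.68 on ICH 1, 2 and 3. The groups overlapped throughout, with sham 1 the lowest array and ICH 2 the highest. The difference was 0.16 ± 0.75 (log2, SE), or 1.12-fold, with a 95% interval from −1.67 to 1.99 and a limma adjusted p of 0.925. It turned to −0.52 without sham 1 and to −0.34 without ICH 2, and was 0.71 ± 0.75 without ICH 3, with a limma adjusted p of 0.596.

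Ccl20, which draws cells that carry Ccr6, was the one gene of the 9 whose probes stayed at background on all 3 sham arrays. Probe A_43_P11985 gave −9.00, −9.19 and −9.27 on sham 1, 2 and 3, and −1.57, −0.17 and −8.30 on ICH 1, 2 and 3. Probe A_64_P157743 gave −9.35, −8.75 and −8.57 on the sham arrays, and −1.55, −0.02 and −9.31 on the ICH arrays. On both probes ICH 1 and ICH 2 alone were well above background, which is under the 3 arrays that the filter asked for, so Ccl20 has no test.

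A probe at background has no measured level, so Ccl20 was compared with an approximate limit averaged over the sham arrays. On each sham array the limit was the lowest signal measured well above background, or the probe's own reading where higher. Some dim probes read above that lowest signal, as Ccr7 did on sham 2 (−7.60 against −8.42). On ICH 1 the signal was 133-fold above the limit by probe A_43_P11985 and 115-fold by probe A_64_P157743. On ICH 2 it was 353-fold and 334-fold above the limit. The mean of ICH 1 and ICH 2 was 217-fold above it on the first probe and 196-fold on the second. ICH 3 was not measured above background by either probe, and a mean over all 3 arrays has to take its background reading as a value. Taken so, that mean was 39.0-fold and 27.3-fold above the same limit, or 13.0-fold and 7.83-fold without ICH 2. None of the ratios given for Ccl20 is a strict lower bound.

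Both receptors were dim, and both were higher on the same pair of ICH arrays. Ccr1, a receptor of monocytes and, in rodents, of neutrophils, stood at −5.57, −6.07 and −6.53 on sham 1, 2 and 3, and at −4.15, −3.19 and −6.89 on ICH 1, 2 and 3. ICH 1 and ICH 2 were 2.68-fold and 5.20-fold above the highest sham array and ICH 3 was below the lowest. The difference was 1.32 ± 0.93 (log2, SE), or 2.49-fold, with a 95% interval from −0.95 to 3.59 and a limma adjusted p of 0.508. Leaving out ICH 3 gave 2.39 ± 0.41, with a limma adjusted p of 0.105, and leaving out ICH 2 gave 0.54 (limma adjusted p of 0.739).

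Ccr2, the receptor of Ccl2 and Ccl7, varied least of the 8 tested genes. It stood at −6.99, −6.63 and −6.55 on sham 1, 2 and 3, and at −6.41, −5.24 and −6.92 on ICH 1, 2 and 3. ICH 2 was 2.49-fold above the highest sham array, ICH 1 was 1.1-fold above it, and ICH 3 lay within the sham range. The difference was 0.54 ± 0.43 (log2, SE), or 1.45-fold, with a 95% interval from −0.51 to 1.59 and a limma adjusted p of 0.552. Without ICH 3 it was 0.90 ± 0.38, with a limma adjusted p of 0.262. It was 0.06 without ICH 2 (limma adjusted p of 0.893) and 0.098 with array quality weights.

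Without ICH 3, none of the 8 tested genes reached an adjusted p under 0.05 in limma, against 33 of all tested probes or genes (0.149%). At an unadjusted p under 0.05, 6 of the 8 were higher in ICH, namely Ccl2, Ccl3, Ccl4, Ccl6, Ccl7 and Ccr1, against 9.2% of all. ICH 3 was left out because of its values, so these figures describe the other 5 arrays. Within row 1 of the slide, where ICH 1 could be set against the sham arrays, Ccl2 was higher by 4.86, Ccl7 by 5.11 and Ccl3 by 3.27 (log2), with limma adjusted p-values of 0.546, 0.501 and 0.560 in the fit that blocks on the row. In that fit Ccr1 was higher by 1.91, Ccl4 by 1.58, Ccl6 by 1.39, Ccr2 by 0.31 and Ccl5 by 0.24. Row 2 held ICH arrays alone and gives no comparison. Weighting the arrays by their quality lowered the differences to 2.02 for Ccl2, 2.26 for Ccl7, 1.43 for Ccl3, 0.75 for Ccl6 and 0.95 for Ccr1.

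**Figure D2:**
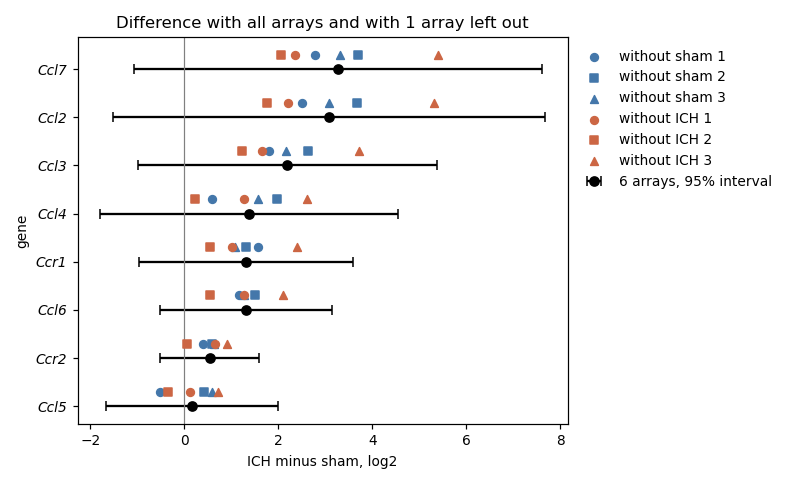
ICH minus sham difference of the 8 tested genes (log2, horizontal axis) with all 6 arrays, in black with the 95% interval of limma, and with each array left out in turn. Every interval of the 6-array comparison spans 0, and the differences without ICH 3 lie to the right of those with all arrays.

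The arrays of the same group differed widely. The SD over the 3 sham arrays was 0.88 at the median of the 8 tested genes and 0.14 at the median of all tested probes or genes, and over the ICH arrays it was 2.16 against 0.31. A sham SD above 0.5 was seen for Ccl2, Ccl3, Ccl4, Ccl5 and Ccl7, 5 of the 8 genes, and for 7.21% of all. Among the sham arrays, sham 2 was above sham 1 by 5.11-fold for Ccl2, 6.67-fold for Ccl4, 3.59-fold for Ccl7, 3.16-fold for Ccl3 and 3.66-fold for Ccl5. The order sham 2, sham 3, sham 1 from high to low was shared by Ccl2, Ccl3, Ccl4, Ccl6 and Ccl7, 5 of the 8 genes, and by 16.9% of all. Ccr1 had the opposite end on top, with sham 1 its highest sham array.

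Among the ICH arrays the SD was larger than among the sham arrays for 7 of the 8 genes, all but Ccl5, at 1.05 against 1.2. ICH 2 was above ICH 3 by 137-fold for Ccl2, 102-fold for Ccl7, 31.5-fold for Ccl3 and 27.6-fold for Ccl4. The receptors and the other ligands spanned less, with 13.1-fold for Ccr1, 8.61-fold for Ccl6, 4.28-fold for Ccl5 and 3.20-fold for Ccr2. ICH 2 was the highest of all 6 arrays for 8 of the 8 tested genes and for 25.5% of all tested probes or genes.

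The rest of the CC family did not share one direction. Of 25 further ligands, receptors and decoy receptors listed, 22 had a probe and 17 were tested, of which 6 were higher and 11 lower in ICH, with a median difference of −0.26. The corresponding median was 1.34 over the 8 tested genes and −0.05 over all tested. None of the 17 reached an adjusted p under 0.05 in limma, and 1, Ccl17, had an unadjusted p under 0.05, against 14.7% of all tested. Ccr8, Ackr1 and Ackr4 had no probe, while Ccl1, Ccl25, Ccr3, Ccr4 and Ccr7 had probes too dim to test.

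Ccl12, a Ccr2 ligand in the mouse that lies in the same stretch as Ccl2 and Ccl7, had the arrangement of those ligands. It stood at −6.35, −2.90 and −5.87 on sham 1, 2 and 3, and at −1.26, −0.85 and −6.85 on ICH 1, 2 and 3. The difference was 2.05 ± 1.79 (log2, SE), with a limma adjusted p of 0.578, and was 3.98 ± 1.09 without ICH 3, with a limma adjusted p of 0.161. Ccl9, a Ccr1 ligand in the mouse, stood at −6.03, −6.04 and −6.14 on the sham arrays and at −4.98, −5.08 and −7.15 on the ICH arrays. ICH 1 and ICH 2 were thus above a narrow sham range, while the reading of ICH 3, not well above background, was below it. The difference, which takes that reading as a value, was 0.33 ± 0.58 (limma adjusted p of 0.785). Without ICH 3 it was 1.04 ± 0.14 (limma adjusted p of 0.0815).

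The receptor of Ccl20 and a decoy receptor differed from sham by less than their spread. Ccr6, the receptor of Ccl20, stood at −5.51, −4.80 and −5.24 on sham 1, 2 and 3, and at −5.62, −4.70 and −6.80 on ICH 1, 2 and 3, a difference of −0.52 ± 0.53 with a limma adjusted p of 0.631. On ICH 1 and ICH 2, where Ccl20 was measured, Ccr6 was close to its sham values, and ICH 3 was its lowest array. Ackr2, a decoy that clears CC chemokines, differed by 0.04 ± 0.23, with a 95% interval from −0.52 to 0.60 and a limma adjusted p of 0.942.

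The lowest differences in the rest of the family were those of Ccl26, a ligand of Ccr3, at −0.63 ± 0.62 (limma adjusted p of 0.621) and of Ccl17, a ligand of Ccr4. For Ccl26 the low array was ICH 2 alone, at −7.71 and not well above background. ICH 1 and ICH 3, at −5.48 and −5.65, lay within its sham range of −6.09 to −5.30. Ccl17 stood at −2.47, −2.27 and −2.51 on sham 1, 2 and 3, and at −2.97, −3.42 and −2.68 on ICH 1, 2 and 3. All ICH arrays were below all sham arrays, as they were for 3 of the 17 (Ccl17, Ccl24 and Ccl27) and for 17.3% of all tested, and the difference was −0.61 ± 0.21 (log2, SE) with a limma adjusted p of 0.310.

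**Figure D3:**
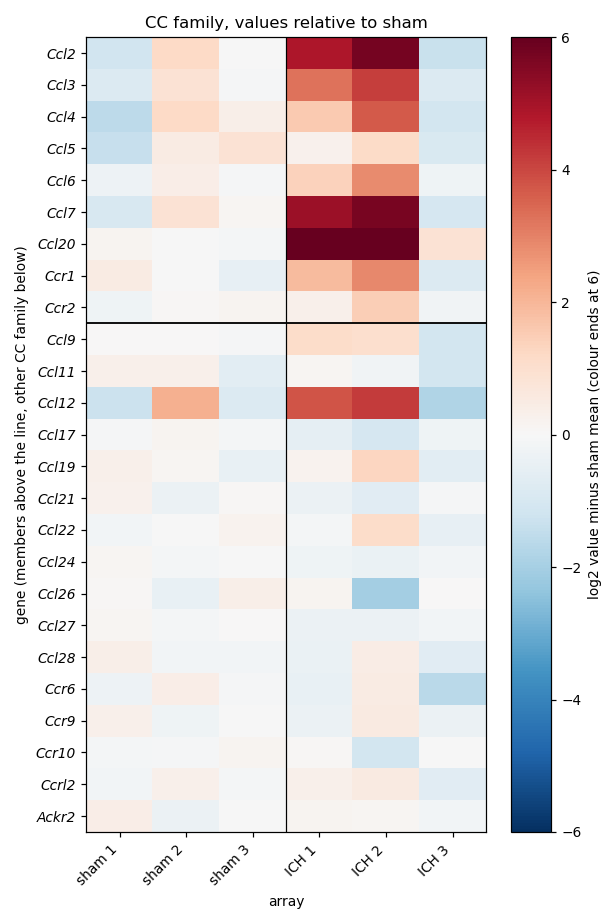
Each row is a gene of the CC family, with the 9 genes described here above the line, and each column an array, and the colour is the log2 signal minus the mean of the 3 sham arrays, with the scale ending at 6. Ccl2, Ccl7, Ccl3 and Ccl12 are high in the columns of ICH 1 and ICH 2 and at or below the sham mean in that of ICH 3.

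In the GRCr8 assembly the ligands lie in clusters. Ccl2, Ccl7, Ccl11, Ccl12 and Ccl1 follow one another on chromosome 10, and Ccl5, Ccl9, Ccl6, Ccl3 and Ccl4 form another run on the same chromosome. Ccl20 lies alone on chromosome 9, and Ccr1, Ccr3 and Ccr2 lie near each other on chromosome 8. Neighbours did not all have like values: Ccl11, named after its values had been seen, an eosinophil attractant between Ccl7 and Ccl12, differed by −0.40 ± 0.40 (limma adjusted p of 0.624), and Ccl5 at the end of its run by 0.16. The Ccl11 probe was not well above background on ICH 3. Related genes in such clusters can have similar sequences, and whether a probe also binds the product of a neighbour was not tested, since probe sequences were not used here.

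**Figure D4:**
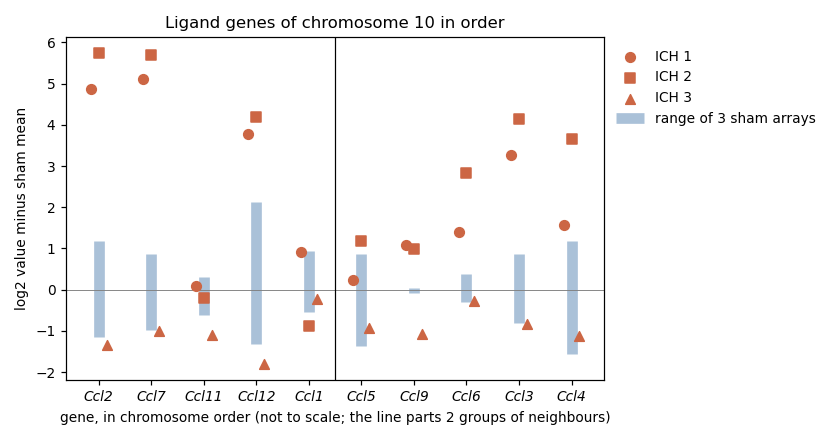
Log2 signal minus the mean of the 3 sham arrays (vertical axis) for the ligand genes of chromosome 10 in their GRCr8 order, which is not to scale, with 1 point an ICH array and a bar over the range of the sham arrays. ICH 1 and ICH 2 stand at 4.86 and 5.75 for Ccl2 and at 5.11 and 5.68 for Ccl7, ICH 3 lies below 0 throughout, and Ccl1 was too dim to test.

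Among 25 genes that carry or regulate the signal of chemokine receptors, 20 had a probe and were tested, of which 10 were higher and 10 lower in ICH, with a median difference of 0.08. None had an adjusted p under 0.05 in limma, and 3 had an unadjusted p under 0.05, of which 2 were higher and 1 lower. That share is close to the 14.7% seen over all tested. Fgr, a Src-family kinase of myeloid cells, stood at −7.20, −6.93 and −6.72 on sham 1, 2 and 3, and at −4.76, −3.69 and −6.63 on ICH 1, 2 and 3. ICH 1 and ICH 2 were again the high arrays, and the difference was 1.93 ± 0.71 (log2, SE) with a limma adjusted p of 0.320. Vav1, an exchange factor of blood cells for Rac, differed by 1.05 ± 0.60 (limma adjusted p of 0.429). At the other end stood Gnai2, an inhibitory G protein subunit that chemokine receptors use, at −0.36 ± 0.12 (limma adjusted p of 0.304), and Plcb2, a phospholipase of the same pathway, at −0.31 ± 0.32 (limma adjusted p of 0.640).

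The genes outside the CC family whose 6 values, taken from the sham mean, lay closest to those of Ccl2 were Lilrb4, Clec4a2, Lcn2, Msr1 and Il1rn. The root mean square distance over the 6 arrays ran from 0.63 (log2) for Lilrb4 to 0.91 for Il1rn. Lilrb4 and Clec4a2 encode receptors of myeloid cells, Lcn2 an iron-binding acute phase protein, Msr1 a macrophage scavenger receptor and Il1rn the antagonist of the interleukin 1 receptor. Within the family the distances to Ccl2 were 0.24 for Ccl7, 0.95 for Ccl12 and 0.97 for Ccl3, then 1.61 for Ccl4, 1.90 for Ccr1 and 1.96 for Ccl6.

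Some leukocyte markers were high on the same arrays as the chemokines. For each list of markers the linear signals of its genes were summed, in units of the 75th percentile of the array. Of 10 markers of monocytes and macrophages, 8 had a probe, all of them well above background on every array, and their sum was 5.72 to 7.78 on the sham arrays and 10.6, 12.6 and 4.34 on ICH 1, 2 and 3. Of the 8, 7 were higher on ICH 1 and ICH 2 than on every sham array, and Lyz2, a lysozyme gene, was lower on all 3 ICH arrays. Of 10 neutrophil markers, 9 had a probe; their sum was 0.109 to 0.278 on the sham arrays and 0.183 to 1.13 on the ICH arrays. The neutrophil list did not move as one: of 6 tested genes 3 were higher (S100a8, S100a9 and Mmp9, by 2.05, 1.85 and 3.86) and 3 lower (Camp, Ngp and Ltf, by −0.02, −0.77 and −0.46), with limma adjusted p-values from 0.179 to 0.985. The granule gene Ltf was not well above background on any ICH array. Likewise the granule genes Elane and Mmp8 were not above background on any array, and Cxcr2 and Mmp9 were not on any sham array. In both sums ICH 1 and ICH 2 were the high arrays, and ICH 3 was below the sham range for the first and within it for the second. Their part in the chemokine values was not tested, and in bulk tissue more cells of a type and more RNA per cell cannot be told apart.

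The T cell list followed the arrays in the way Ccl5 did by its median, though not in every gene. All 8 of its genes had a probe and were above background on all arrays, and the median of the list, taken from the mean of the sham arrays, was −1.89, 0.99 and 0.89 on sham 1, 2 and 3, and −0.46, 0.93 and −1.17 on ICH 1, 2 and 3. Sham 1 and ICH 3 were the low arrays for Ccl5 and for the list median. Of the single genes, Cd3e was highest on ICH 3 (−2.71), and Cd4 was lower on all 3 ICH arrays than on every sham array. The part of T cells in the Ccl5 values was not tested. The summed level of the list was 0.244 to 1.45 in sham and 0.444 to 1.65 in ICH, so the groups overlapped.

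Microglia markers, 7 of 8 with a probe, did not follow the chemokines: their sum was 22.0 to 22.8 on the sham arrays and 17.1 to 17.9 on the ICH arrays, with ICH 3 as low as the others. Sums for the resident cells were 19.9 to 22.2 in sham and 16.2 to 19.4 in ICH for neurons, 13.9 to 15.2 and 11.8 to 14.6 for astrocytes, and 25.7 to 28.1 and 16.4 to 22.7 for oligodendrocytes. The neuron markers differed among themselves: Tubb3, Map2 and Gad1 were lower on all 3 ICH arrays than on every sham array, whereas Syn1, Snap25 and Slc17a7 were higher on all 3, and the median difference of the list was −0.09. Of the 4 astrocyte genes tested, 2 were higher and 2 lower in ICH. Gfap stood at 1.12, 1.54 and 1.66 on sham 1, 2 and 3. On ICH 1, 2 and 3 it stood at 2.35, 2.49 and 0.99 (limma adjusted p of 0.565). For Gfap, as for Ccl2, ICH 1 and ICH 2 were above every sham array and ICH 3 was below them. Endothelial markers summed to 5.74 to 5.98 in sham and 3.90 to 5.17 in ICH, and erythroid markers to 1.97 to 3.88 and 3.51 to 4.94. The erythroid sum holds the brighter of 2 Hbb probes, which differed by 0.64 with overlapping groups. The dimmer Hbb probe, not in the sum, differed by 2.41, with all 3 ICH arrays above every sham array. Of the 3 erythroid genes tested, 2 were higher and 1 lower in ICH. Choroid plexus markers ranged from 3.01 to 10.6 in sham and from 5.22 to 9.63 in ICH, with sham 2 and ICH 3 the high arrays. The part of these cells in the chemokine values was not tested.

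**Figure D5:**
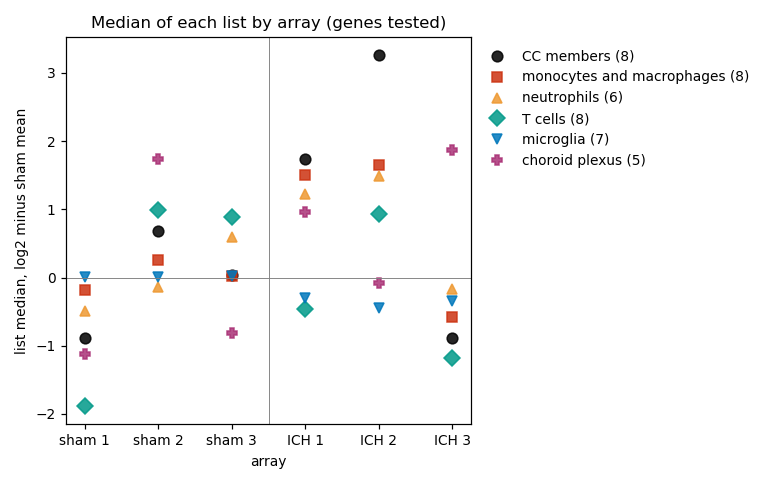
Median over each gene list of the log2 signal minus the mean of the 3 sham arrays (vertical axis), with 1 point an array and the number of genes tested in parentheses. The monocyte and macrophage list stands at 1.51 and 1.66 on ICH 1 and ICH 2 and at −0.58 on ICH 3, and the CC genes described here at 1.75, 3.27 and −0.88.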

How the data were processed

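RNA from 3 sham and 3 ICH rat brain samples was amplified with a Cy3 label and hybridised to Agilent arrays, per the labels' protocols. Scanner intensity and flags came from Agilent Feature Extraction, version 11.5.1.1 per the file headers and 10.7 per the submitters' processing notes. The authors deposited 1 log2 value per probe, which equalled the scanner's mean log2 signal minus a constant of each array, within 0.001 for 98.5% to 99.3% of probes. This deposited table was the main input. Of 30367 probes, 18355 matched 1 gene symbol in RefSeq through their accession and 12012 matched none and were kept unnamed.

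Probes were kept where at least 0.5 of their spots were well above background on 3 or more of the 6 arrays, with the brightest probe standing for a gene. ICH and sham were compared with limma 3.58.1 (lmFit and eBayes) in R 4.3.3, with Benjamini-Hochberg adjustment over all 22183 probes or genes tested, after the code had been tested on simulated data. Genes named by rule were the 9 members, the other receptors of the ligands, the 2 highest and 2 lowest of the rest of the family and of the signalling list, and the 5 genes outside the family nearest to Ccl2. Some genes that the rule would name are not reported here. Members and lists were chosen with earlier results of these data known. Same-numbered samples did not deviate together (correlations −0.19, −0.01 and 0.07), so the numbers were not taken as pairs. Alternatives changed the background correction, centring, filter, choice of probe, variance model, array weights, blocks and the arrays used.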

Additional observations from a re-analysis of the deposited data

How the results depend on the processing

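Over 18 alternatives the 8 tested CC genes gave 144 differences, of which 141 kept their direction with no gene passing an adjusted p under 0.05, and 3 turned, all of Ccl5: −0.63 with array weights, and −0.52 to 0.71 as each array was left out. Ccl2 ranged from 1.76 to 5.30 and Ccl7 from 2.06 to 5.40, both highest without ICH 3. With centring on spike-in probes the median over all tested was 0.39 in place of −0.05, that of the other CC family 0.18 (14 higher in place of 6) and that of the signalling list 0.52 (20 higher in place of 10). Without the filter, when genes with dim probes also entered, 10 of the 22 genes of the other family with a probe were higher, in place of 6 of 17. With the slide row as a block the signalling median was 0.21, with 16 higher. As each array was left out, the family median ran from −0.27 to 0.02 (0.016 without ICH 3) with 4 to 9 higher, and the signalling median from −0.02 to 0.19 with 10 to 13 higher. The number of genes called, 0 with all arrays, was 3 with normexp, 4 with the filter on all 6 arrays, 4 with an intensity trend, 3 with array weights and 33 with spike-in centring, and 0 to 33 as each array was left out (8 without ICH 2, 33 without ICH 3). At an unadjusted p under 0.05 it was 5218 with spike-in centring, and 1326 to 4684 with each array left out. The cause of these shifts was not tested. With the replicate number as a block, which the check of pairing did not bear out, 0 genes were called, 2413 had an unadjusted p under 0.05, and the limma adjusted p of Ccl2 was 0.470. Ccl20 was at background on 4 arrays, so it is described by ratios over an approximate limit.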
